A study of Mus musculus with 9 samples.

Results

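The SET1 complex is brought to promoters by CFP1, a subunit that recognises non-methylated CpG DNA, and the study mapped that DNA in C127 cells, a mouse mammary epithelial line. Of its 9 samples, only the BioCAP library (n = 1) was used here, as the authors' list of 13491 non-methylated islands (NMIs). BioCAP captures sonicated genomic DNA on the CXXC domain of human KDM2B, which binds CpG sites without methylation, and the NMIs are the intervals where captured reads were enriched. The cells were an untreated line grown in serum, and no genotype, dose or time separates the samples. The genes described here are 9 classic tumour suppressors, Trp53, Hic1, Stk11, Dapk1, Apc, Vhl, Nf1, Rassf1 and Fhit, out of 21938 protein-coding genes. They were chosen by name, with earlier results of these data known. Each was examined at the 5′ end of every annotated transcript (GENCODE M21 on mm10) and within 2 kb of it. CpG density was taken within 500 bp of the outermost 5′ end. The list has no scores and there were no replicates, so no test was possible, and the values below are descriptions of 1 library.

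Tumour suppressors restrain growth or promote the death of damaged cells, and tumours lose them in different ways. Trp53, Stk11, Apc, Vhl and Nf1 are known mainly for mutation and deletion, although the promoters of Apc and Vhl are also methylated in some tumours. Rassf1, Dapk1, Hic1 and, in part, Fhit are textbook cases of genes that tumours and cultured lines silence by methylation of a promoter that is free of methylation in most normal tissue. CpG islands are promoter stretches in which CpG sites have been kept because they are usually not methylated in the germline. An NMI at a 5′ end therefore marks captured, non-methylated promoter DNA, but it is not a measure of transcription. A gene without an NMI is a gene with no interval in this list, and methylated DNA cannot be told apart from DNA that was captured too weakly, could not be mapped uniquely or is missing from the line. The RNA libraries were not analysed here, so the cell type was not checked by expression. Of 4 epithelial marker genes, 0 had an NMI at a 5′ end. By the deciles of CpG density described below, Krt8 and Epcam lay where 41.9% of protein-coding genes had one. Krt18 lay where 69.4% had one, and Cdh1 where 82.3% had one. An NMI does not measure a marker's expression.

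An NMI lay at a 5′ end of 6 of the 9 genes, Trp53, Stk11, Apc, Vhl, Nf1 and Rassf1, and none lay at a 5′ end of Hic1, Dapk1 or Fhit. Across all protein-coding genes the share was 47.5% (exact 95% binomial interval 46.9 to 48.2%, for counting error only). The same 6 genes had an NMI at the outermost 5′ end (42.5% of all protein-coding genes) and within 2 kb of any 5′ end (49.7% of all). The 3 genes without an NMI thus missed it by more than 2 kb, with the nearest interval 3457 bp from the outermost 5′ end of Hic1, 173623 bp from that of Dapk1 and 391126 bp from that of Fhit. Hic1, Dapk1 and, in part, Fhit are named above as textbook cases of promoter methylation, but so is Rassf1, which had an NMI. Apc and Vhl, also methylated in some tumours, had an NMI too. The genes were grouped with earlier results of these data known, and a link between this grouping and the list was not tested.

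The sequence just before the 5′ end is shown for 5 of the genes. The stretches below are taken from the GRCm38.p6 reference (the mm10 assembly), read 5′ to 3′ on the strand of the gene, and leave out all annotated exons, with CpG sites in capitals. They were picked because the Dapk1 and Stk11 stretches are alike in CpG content and differ in the list, and because Trp53 is poor in CpG and lies in the widest NMI of the 9 genes. Stk11 is chr10:80115603-80115802 on the plus strand, Rassf1 is chr9:107551355-107551554 on the plus strand and Trp53 is chr11:69580256-69580358 on the plus strand, and all of their bases lie inside an NMI. Dapk1 is chr13:60601747-60601946 on the plus strand and Hic1 is chr11:75169520-75169719 on the minus strand, and none of their bases do.
Stk11: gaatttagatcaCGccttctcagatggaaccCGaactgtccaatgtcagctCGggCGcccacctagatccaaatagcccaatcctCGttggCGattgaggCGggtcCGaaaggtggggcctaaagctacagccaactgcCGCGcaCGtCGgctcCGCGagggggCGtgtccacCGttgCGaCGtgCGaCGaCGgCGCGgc
Rassf1: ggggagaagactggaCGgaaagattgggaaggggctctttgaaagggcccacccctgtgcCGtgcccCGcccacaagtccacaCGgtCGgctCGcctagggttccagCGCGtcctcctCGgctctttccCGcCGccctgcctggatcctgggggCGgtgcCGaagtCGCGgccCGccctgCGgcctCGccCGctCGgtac
Trp53: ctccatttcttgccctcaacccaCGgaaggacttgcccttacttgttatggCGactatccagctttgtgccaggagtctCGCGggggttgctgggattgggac
Dapk1: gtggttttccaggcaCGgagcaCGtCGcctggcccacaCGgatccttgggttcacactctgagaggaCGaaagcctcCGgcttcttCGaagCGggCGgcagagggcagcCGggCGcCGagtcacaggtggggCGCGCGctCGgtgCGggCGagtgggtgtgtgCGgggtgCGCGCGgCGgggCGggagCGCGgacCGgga
Hic1: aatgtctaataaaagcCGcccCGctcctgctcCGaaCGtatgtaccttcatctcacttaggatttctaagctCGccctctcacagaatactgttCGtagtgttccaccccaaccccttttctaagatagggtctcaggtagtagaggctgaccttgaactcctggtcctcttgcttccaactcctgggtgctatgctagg
The Dapk1 stretch held 27 CpG sites in 200 bp, more than the 23 of Stk11 and the 20 of Rassf1. The Trp53 stretch of 103 bp, which runs up to the first base of its neighbour Wrap53, held 4, and the 200 bp before Hic1 held 6. Of the stretches not shown, those of Vhl (13) and Nf1 (17) lie before promoters with an NMI, and that of Fhit (5), which starts 202 bp upstream, lies before one without.

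CpG density near the outermost 5′ end did not divide the genes with an NMI from those without. Within 500 bp the 6 genes with an NMI ran from 3.70 CpG per 100 bp (Trp53) to 12.9 (Stk11), with Rassf1 at 7.09, Vhl at 7.99, Apc at 9.09 and Nf1 at 9.89. The 3 genes without lay inside that range, at 4.10 for Fhit, 5.99 for Hic1 and 9.09 for Dapk1. For Fhit and Hic1 this rests on Trp53, since the next gene with an NMI was Rassf1. Other settings put a gene without an NMI below Trp53, the lowest gene with an NMI in each. Within 250 bp it was Hic1 (3.19 against 3.59), and within 1000 bp it was Fhit (2.75 against 3.75). As a mean over distinct 5′ ends it was again Fhit (2.11 against 3.67). Dapk1 and Apc had the same number of CpG sites in the window, 91, and only Apc had an NMI. When all protein-coding genes were divided into deciles by this density, the share with an NMI rose from 1.84% in the lowest decile to 83.9% in the highest, which holds Stk11 and Nf1. Trp53 lay in the decile where 41.9% had an NMI. Dapk1 shared with Apc and Vhl a decile in which 83% had an NMI, Rassf1 lay in the decile with 82.3%, and Hic1 in the decile with 77.3%. Fhit lay at the lower edge of the decile with 69.4%, next to that of Trp53. Of the 2366 protein-coding genes at least as dense as Dapk1, 379 had no NMI, so that Dapk1 belongs to a minority of such genes without being alone.

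**Figure D1:**
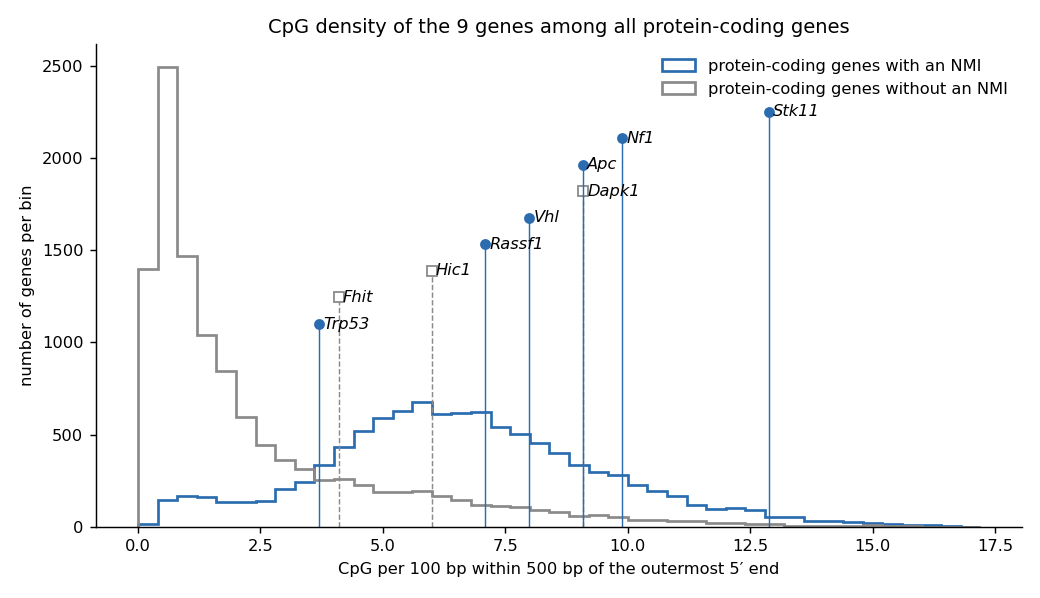
Number of protein-coding genes (y axis, per bin of 0.4 CpG per 100 bp) by CpG density within 500 bp of the outermost 5′ end (x axis), for genes with an NMI at a 5′ end (blue) and without (grey). Marker heights only separate the labels of the 9 genes. Fhit, Hic1 and Dapk1 (open squares) lie between Trp53 at 3.70 and Stk11 at 12.9, among the 6 genes with an NMI (filled circles).

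Trp53 (ENSMUSG00000059552.13) encodes p53, which halts the cell cycle or triggers death after DNA damage. Its NMI (chromosome 11, 69578448 to 69582073) was 3626 bp wide, wider than 99.2% of the 9581 NMIs at protein-coding 5′ ends. It reached 1911 bp upstream of the outermost 5′ end and 1714 bp downstream, over 1558 bp of Trp53 intron and 157 bp of its exons, none of it coding. The NMI also held 5′ ends of Wrap53, a gene on the opposite strand that encodes a telomerase and Cajal body protein, the nearest 104 bp upstream of that of Trp53. Such sharing with another gene was found for 35.9% of protein-coding genes with an NMI. Inside this interval the CpG sites formed a pair of shoulders around a sparse centre. The sequence criteria for CpG islands (at least 500 bp, 55% GC and an observed/expected CpG ratio of 0.65) were met by a stretch of 990 bp upstream and by another of 576 bp in the intron, but not at a 5′ end of Trp53. Of the 4 distinct 5′ ends of Trp53, 3 lay in the NMI, and the remaining non-coding transcript started 6622 bp beyond it.

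Hic1 (ENSMUSG00000043099.4), a transcriptional repressor whose name records its hypermethylation in cancer, was the opposite case. Its outermost 5′ end (chromosome 11, 75169519, minus strand) lay in a predicted CpG island of 4409 bp with 350 CpG sites (75165295 to 75169703), longer than almost all of the 12324 predicted islands at protein-coding 5′ ends. None of it was in an NMI, whereas an NMI overlapped 74% of those islands and 69.8% of the 964 that were at least 2000 bp. The density at Hic1 depended on the window, since the 5′ end lies at the upstream edge of the island: within 250 bp it was 3.19 CpG per 100 bp, the lowest of the 9 genes, and within 1000 bp only Stk11 was denser. The next island upstream (982 bp) also had no NMI. The island beyond it (75172001 to 75174165) was covered over 42.4% of its 2165 bp by an NMI of 917 bp (75172976 to 75173892) that held the start of the microRNA gene Mir132. On the other side the nearest gene with an NMI was Smg6, 242872 bp away. Of the 23 other protein-coding genes within 500 kb of Hic1, 19 (82.6%) had an NMI. The part of this setting in the absence at Hic1 was not tested.

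The kinase genes Stk11 and Dapk1 were both rich in CpG and differed in the list. Stk11 (ENSMUSG00000003068.16) encodes LKB1, which activates AMPK when energy is low. Its NMI (chromosome 10, 80114579 to 80117560) was 2982 bp wide with 225 CpG sites (7.55 per 100 bp), wider than 98.0% of NMIs at protein-coding 5′ ends, and reached 290 bp of coding sequence. It contained the whole predicted island of 2552 bp. Of 8 distinct 5′ ends, the 4 in the NMI had 8.19 to 12.9 CpG per 100 bp within 500 bp, and the 4 further along the gene, 7259 to 9122 bp beyond the NMI, had 1.10 to 1.60. Dapk1 (ENSMUSG00000021559.14), a calmodulin-regulated kinase that promotes cell death, had 5 of its 7 distinct 5′ ends in a predicted island of 1445 bp (chromosome 13, 60601433 to 60602877), each with 9.09 to 10.4 CpG per 100 bp, and no NMI touched it. The nearest gene with an NMI was Gas1 on the lower side, 423152 bp away, and Gm49359 on the higher side, 1864766 bp away. The surroundings of Dapk1 were poor in NMIs: 1 of 13 other protein-coding genes within 500 kb (7.69%) had an NMI, and the window held 2 NMIs in all. The part of this setting in the absence at Dapk1 was not tested. Dapk1 and Fhit were the members over 100 kb from the nearest NMI. Of all protein-coding genes 24.4% were, but only 6.46% of those in the density decile of Dapk1 and 9.88% of those in that of Fhit.

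**Figure D2:**
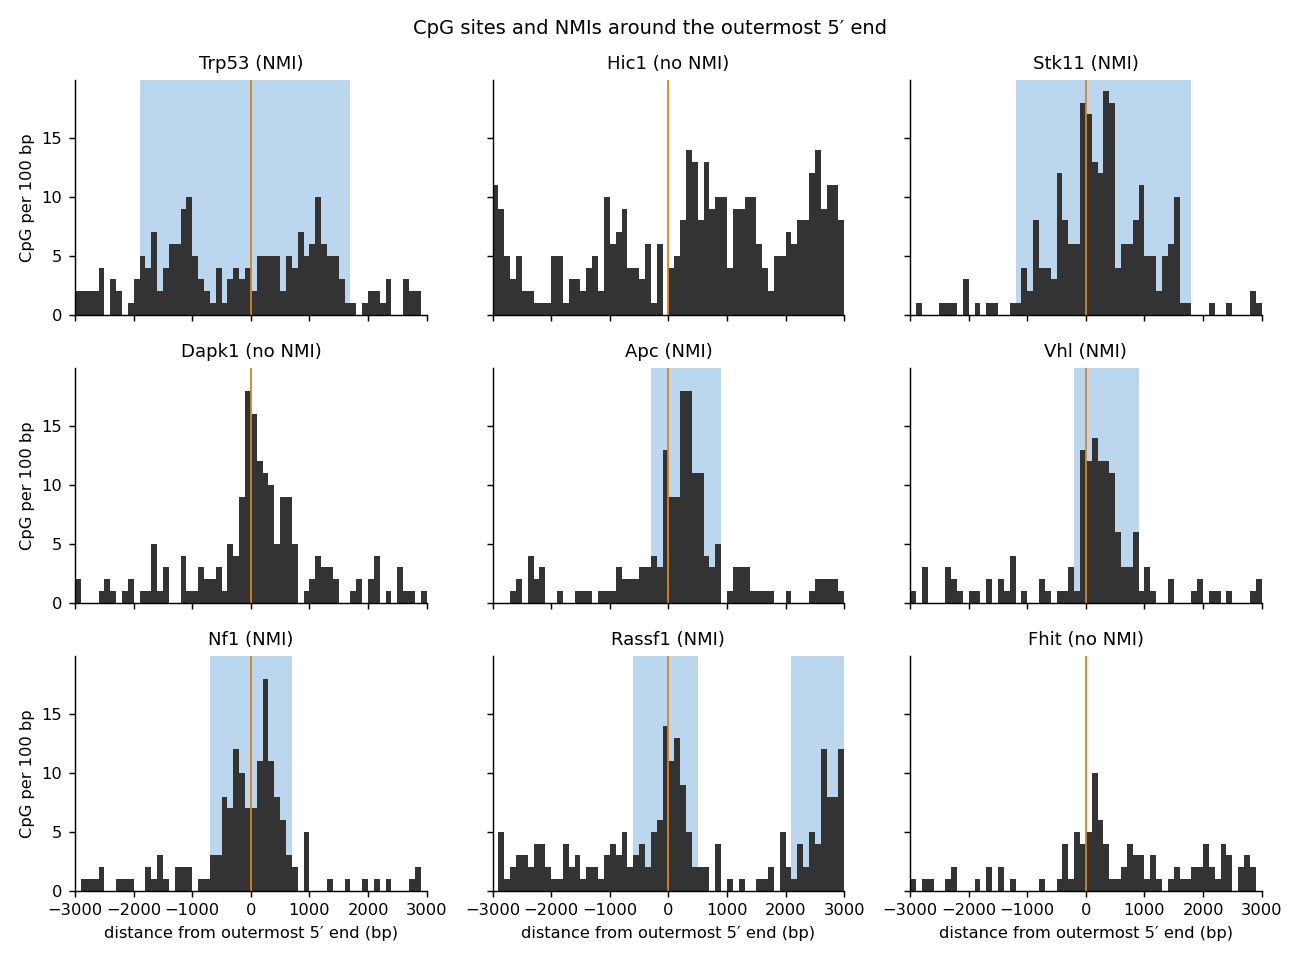
CpG sites per 100 bp bin (y axis) within 3 kb of the outermost 5′ end (x axis, bp, in the direction of transcription; orange line at 0), with bins of which at least 50 bp lie in an NMI shaded blue. Dapk1 and Apc have like peaks of CpG and only Apc is shaded, and Trp53 has the widest shaded stretch (3626 bp) over a low profile.

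Apc (ENSMUSG00000005871.15), the scaffold of the complex that marks beta-catenin for destruction, had separate NMIs at 2 promoters. The first (chromosome 18, 34220655 to 34221850) was 1196 bp wide with 8.86 CpG per 100 bp, held 4 distinct 5′ ends and reached 165 bp of coding sequence. It also held the 5′ end of the pseudogene Gm10548 on the opposite strand. The second (34247212 to 34247731) lay in an intron, was 520 bp wide with 26 CpG sites, and held 2 further 5′ ends, that of the protein-coding transcript Apc-201 among them. These lay at its downstream edge, with 482 bp of the interval before the first of them and 37 bp after it. It was among the narrower NMIs, with 4.62% of those at protein-coding 5′ ends narrower still. The 25361 bp between them had 0.832 CpG per 100 bp. The last 2 of the 8 distinct 5′ ends, which belong to transcripts not annotated as protein-coding, lay 29493 and 30788 bp from the nearest NMI.

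Rassf1 (ENSMUSG00000010067.13), an adaptor that links Ras-type signals to the Hippo kinases and to microtubules, likewise had a pair of NMIs. The gene is known for a long form from an upstream promoter, the one methylated in many tumours, and for a shorter form from an internal promoter. The upstream NMI (chromosome 9, 107550967 to 107552072) was 1106 bp wide with 74 CpG sites and held 4 of 10 distinct 5′ ends. The internal NMI (107553627 to 107555510) was wider, at 1884 bp with 131 CpG sites, and held 2. Their CpG densities were close, at 6.69 and 6.95 per 100 bp. The 1554 bp between them held 21 CpG sites, 1.35 per 100 bp. All 3 protein-coding 5′ ends of Rassf1 lay in an NMI, and the 4 outside it, 1101 to 2432 bp beyond, belonged to non-coding or intron-retaining transcripts. The upstream NMI overlapped 353 bp of exons of Zmynd10, the neighbouring gene whose 3′ end lies there. An NMI of 774 bp at the 5′ end of Tusc2, a further suppressor of this gene cluster, lay just beyond the 3′ end of Rassf1 (107562820 to 107563593) and was named after its position was seen. Apc and Rassf1 are 2 of the 408 protein-coding genes (1.86% of all and 3.91% of those with an NMI) with 2 or more separate NMIs at their 5′ ends.

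**Figure D3:**
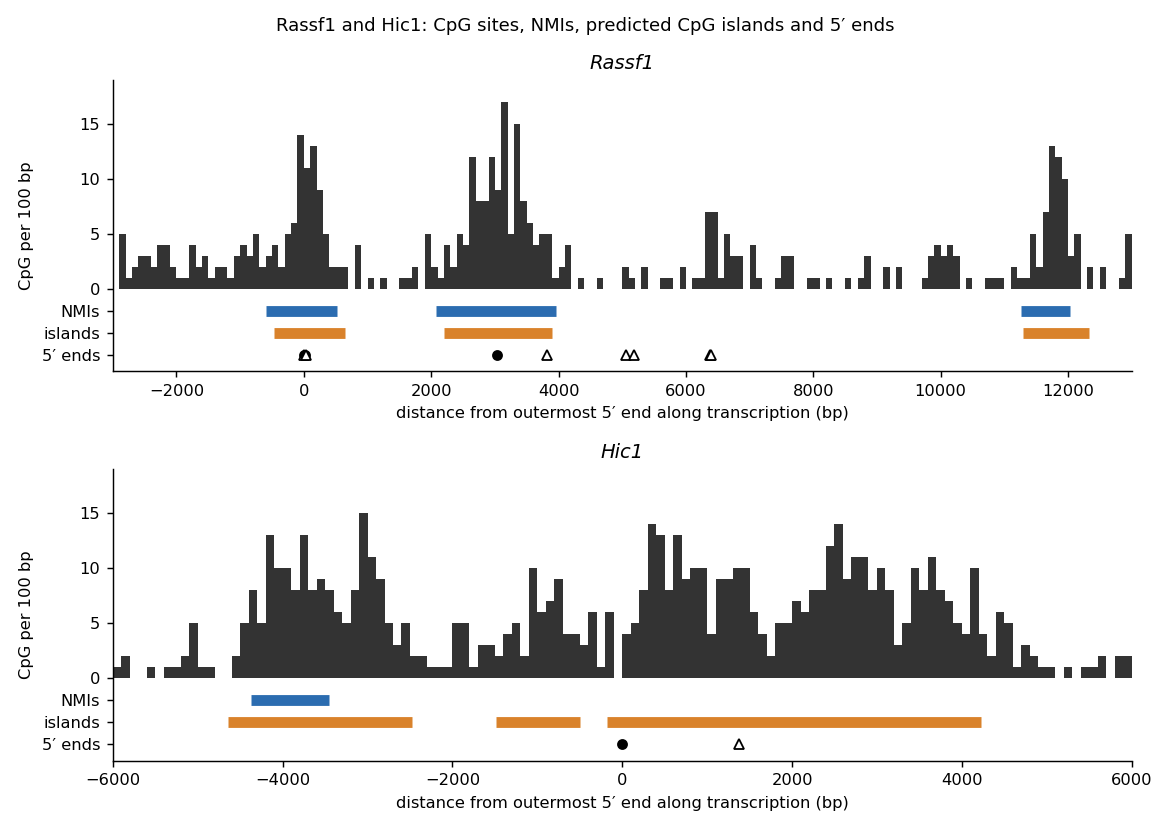
CpG sites per 100 bp bin (y axis, bars), NMIs (blue), predicted CpG islands (orange) and distinct 5′ ends (filled circles, protein-coding; open triangles, other transcripts) along Rassf1 and Hic1, by distance from the outermost 5′ end (bp). Rassf1 has NMIs of 1106 and 1884 bp over 2 islands with a CpG-poor gap of 1554 bp between them (the NMI at the right is that of Tusc2, 774 bp). The island of 4409 bp at Hic1 has none, and the NMI to its left is that of Mir132 (917 bp).

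Vhl and Nf1 each had 1 NMI, at the outermost 5′ end. Vhl (ENSMUSG00000033933.13) encodes the substrate-binding subunit of the ubiquitin ligase that removes HIF proteins in the presence of oxygen. Its NMI (chromosome 6, 113623766 to 113624880) was 1115 bp wide with 8.34 CpG per 100 bp. It was lopsided, with 193 bp upstream and 921 bp downstream of the outermost 5′ end and 238 bp of coding sequence. A non-coding transcript, Vhl-203, started 49 bp past its end, at a site with 2.60 CpG per 100 bp. Nf1 (ENSMUSG00000020716.16) encodes neurofibromin, which switches Ras off. Its NMI (chromosome 11, 79339038 to 79340390) was 1353 bp wide with 8.28 CpG per 100 bp and nearly symmetric, with 655 bp upstream and 697 bp downstream. The 3 further 5′ ends inside this long gene (241920 bp), 1 of them protein-coding, had 0.599 to 1.10 CpG per 100 bp and lay 107763 to 166947 bp from an NMI. None of the 9 genes had an NMI in its body away from its own 5′ ends.

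Fhit (ENSMUSG00000060579.13) encodes a dinucleoside triphosphate hydrolase and spans a common fragile site. The gene is 1611944 bp long (chromosome 14, 9550092 to 11162035, minus strand), and no NMI lay anywhere in it. Its outermost 5′ end lay in a short predicted island of 709 bp (11161610 to 11162318) with 36 CpG sites, and 6.89% of predicted islands at protein-coding 5′ ends were shorter. The next NMI beyond the start was at Ptprg, a receptor tyrosine phosphatase gene, 391126 bp away, and on the other side the nearest gene with an NMI was Kctd6, 2947112 bp away. Only 2 other protein-coding genes started within 500 kb of Fhit, 1 of them with an NMI, which is too few to describe the neighbourhood. The start of Fhit is less clear a case than Hic1 and Dapk1, since its density of 4.10 equals the median of all protein-coding genes.

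Taken by transcript, 25 of the 57 distinct 5′ ends of the 9 genes (43.9%) lay in an NMI, against 38.4% of those of all protein-coding genes. For protein-coding transcripts only it was 13 of 26 (50%), against 42.6%, and with 5′ ends within 100 bp merged it was 13 of 39 (33.3%), against 26.2%. In the 6 genes with an NMI, density and position went together within a gene. The 25 ends inside had a median of 8.19 CpG per 100 bp (3.30 to 12.9), and the 16 outside had a median of 1.20 (0.599 to 3.40). The ranges overlapped only at the low end, where the internal promoter of Apc (3.30) was inside and the last 5′ end of Trp53 (3.40) was outside. In Hic1, Dapk1 and Fhit, by contrast, ends of up to 10.4 CpG per 100 bp were outside. Ends of 1 gene share sequence and are not independent.

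**Figure D4:**
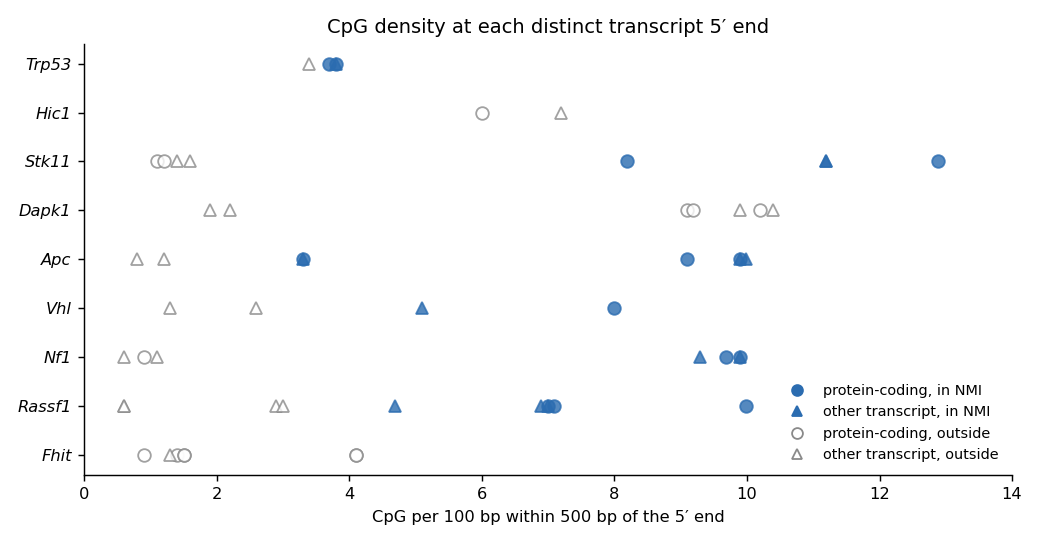
CpG per 100 bp within 500 bp (x axis) of each distinct transcript 5′ end of the 9 genes (rows), filled blue where the end lies in an NMI and open where it does not (circles, protein-coding transcripts; triangles, other transcripts). In the 6 genes with an NMI the open symbols lie at 3.40 or below, whereas Dapk1 has open symbols up to 10.4.

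The 8 NMIs of these genes were otherwise ordinary in composition. Their median width was 1274.5 bp (520 to 3626 bp), beside 1173 bp for all NMIs at protein-coding 5′ ends. Their median CpG density was 7.25 per 100 bp, beside 6.89, and their median observed/expected ratio was 0.750, beside 0.762. Of the 10 predicted islands that held a 5′ end of a member, the 7 with an NMI were covered over 81.1% (Vhl) to 100% (Stk11 and the internal promoter of Rassf1) of their length. The 3 without, at Hic1, Dapk1 and Fhit, were not covered at all.

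Genes that work with these suppressors were counted from lists of partners and relatives. Of 163 such genes and other suppressors, 134 had an NMI at a 5′ end (82.2%), beside 47.5% of all protein-coding genes. They were also denser in CpG at the outermost 5′ end, with a median of 6.69 per 100 bp against 4.10 for all. In the upper 4 deciles of density 81.7% of all protein-coding genes had an NMI. There the lists of partners and relatives ran from 66.7% (2 of 3, Dapk family) to 100%. In the lower 6 deciles, where 24.5% of all had an NMI, they ran from 40% (Rassf and Hippo list) to 100%, with few genes per list. All 13 genes of the Ras and GTPase activator list around Nf1 had an NMI, with Spred1 (3430 bp) and Spred2 (2567 bp), inhibitors of Ras signalling, among the widest. The same held for the 6 HIT-family relatives of Fhit, among them Aptx (1471 bp) and Galt (1358 bp), and for the 4 genes around Hic1, including its paralogue Hic2 (1986 bp) and the co-repressor gene Ctbp2 (3266 bp). Fhit thus had no NMI while its listed relatives did, and Hic1 had none while its paralogue and listed partners did. Around Apc, 11 of 12 destruction complex and Wnt effector genes had an NMI, with Tcf7l2 (3522 bp) and Gsk3b (3489 bp) the widest, and the paralogue Apc2 had none. Around Stk11 it was 20 of 22, without Brsk2 and Prkag3. Around Trp53 it was 14 of 16, with Bbc3, which encodes the death effector PUMA, the widest (3803 bp). The 14 include Wrap53, whose NMI is the one it shares with Trp53. The p53 relatives Trp63 and Trp73 had none. Around Vhl it was 10 of 12, without Epas1 and Hif3a, which encode HIF alpha subunits, whereas Hif1a had an NMI of 1796 bp. Of the Rassf and Hippo list, 12 of 16 had an NMI, and all 4 without were Rassf genes (Rassf4, Rassf6, Rassf9 and Rassf10), while the Hippo kinase gene Lats2 (2456 bp) and the scaffold gene Sav1 (1559 bp) had one. In the Dapk family, Dapk3 and Stk17b had an NMI and Dapk2 did not.

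Other tumour suppressors were then split into those known mainly for mutation or deletion and those known for promoter methylation in tumours. A place in the second list does not exclude loss by mutation or deletion. Of 27 known mainly for mutation or deletion, 26 had an NMI (96.3%), with Ptch1 (3776 bp), the Hedgehog receptor gene, the widest, and Wt1 was without. Of 32 known for promoter methylation in tumours, 16 had an NMI (50%). The lists also differed in CpG density at the outermost 5′ end, with medians of 7.59 and 5.84 per 100 bp. Among genes in the upper 4 deciles of density, where 81.7% of all protein-coding genes had an NMI, it was 24 of 25 in the first list (96%) and 8 of 17 in the second (47.1%). In the lower 6 deciles, where 24.5% of all had an NMI, it was 2 of 2 in the first list and 8 of 15 in the second (53.3%). The share in the second list was thus below that of all genes in the upper deciles and above it in the lower. The 24.5% pools deciles with shares from 1.84% to 69.4%, and the listed genes were not matched to all genes by density within them. Of the 9 members, 7 were in the upper 4 deciles, 5 of them with an NMI. The other 2 were in the lower 6 deciles, 1 of them with an NMI. The widest NMIs of the second list lay at Socs1 (2467 bp), which encodes a cytokine signalling inhibitor, at Dlc1 (2089 bp), at Wwox (1869 bp), which like Fhit spans a fragile site, and at Runx3 (1796 bp). Cacna2d3, Cdh1, Cdkn2a and Dkk3 were among those without. The lists were drawn up from general knowledge with earlier results of these data known, and the difference between them was not tested.

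**Figure D5:**
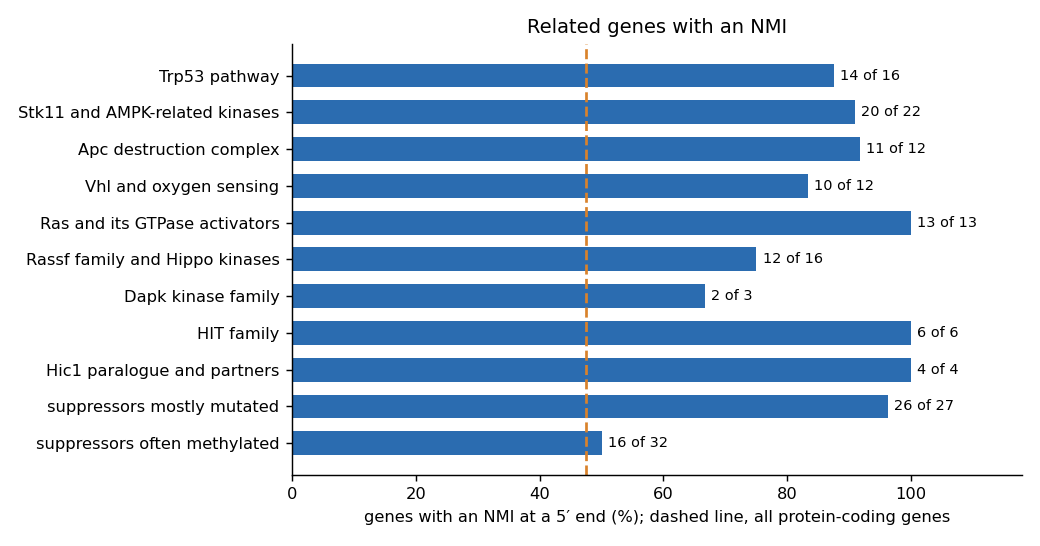
Share, in percent, of listed genes whose 5′ end lies in an NMI (bars from 0, with the number of genes), beside 47.5% of all protein-coding genes (dashed line). Suppressors known mainly for mutation or deletion stand at 96.3% and those known for promoter methylation at 50%.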

How the data were processed

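DNA of C127 cells was captured by BioCAP and sequenced. The authors used Bowtie2 against mm10, kept only reads that aligned uniquely, collapsed duplicates (SAMtools) and called NMIs by MACS (MACS2 in the submitters' processing notes). Tool versions are not stated in the labels or methods, nor is the background MACS used for these calls. The deposited list holds a chromosome, start and end for each NMI, without a score or depth, and starts were shifted to count from 1. Discarding reads that map more than once can remove signal from near-identical copies.

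GENCODE M21 transcripts on chromosomes 1 to 19, X and Y were used, with the GRCm38.p6 sequence, which matched all 11 RefSeq promoter sequences of the members. A CpG counted when both bases lay within 500 bp of the 5′ end. Predicted islands were unions of 500 bp windows (criteria of Takai and Jones). The code was tested on simulated data. Python 3.11.15, numpy 2.4.6 and scipy 1.17.1 were used.

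The members and lists were chosen with earlier results of these data known. Genes named were the members, genes that share their NMIs, the nearest genes with an NMI on each side of members without, and up to 4 per list with the widest NMI and up to 4 without, in alphabetical order. The other samples were not analysed here.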

Additional observations from a re-analysis of the deposited data

How the results depend on the processing

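Of 20 alternatives over 7 results, 15 stayed within 1.5 times the count or within the exact binomial interval of the share. No rise in the number of members with an NMI could go beyond that limit. The interval of the share treats 5′ ends as independent, which those of 1 gene are not. The tally is therefore a weak check. The number of members with an NMI was 6 within 250 bp or 1000 bp of a 5′ end, with 100 bp of NMI required on both sides, for protein-coding or basic transcripts only, and without NMIs under the lower quartile of width (572.5 bp, used because the list has no score). It was 7 within 5000 bp, where Hic1 was added through the NMI at Mir132. The median NMI width was 1618.5 bp for the widest NMI of each member and 1353 bp without narrow NMIs, which leaves out the internal promoter of Apc. The median CpG density of the members, 7.99 per 100 bp, was 9.18 within 250 bp, 6.15 within 1000 bp and 5.91 as a mean over distinct 5′ ends. Related genes with an NMI numbered 134 of 163, and 115 at the outermost 5′ end alone. No paired analysis was possible because only 1 library gives values and no result comes from a test. Without scores or depth, weakly captured promoters cannot be told apart from absent ones.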

Other observations

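Some listed genes without an NMI at a 5′ end lay close to one. The closest of the 5 distinct 5′ ends of Zmynd10 was 478 bp from an NMI, and the closest of 5 of Trp73 was 1972 bp from one. For Apc2 the closest of 6 was 2407 bp from one, and for Sfrp4 the closest of 4 was 3172 bp from one. On chromosome 4, Cdkn2b had an NMI of 1066 bp, and Cdkn2a, with 10.8 CpG per 100 bp at its outermost 5′ end, had an NMI no nearer than 15482 bp to either of its 2 distinct 5′ ends. Among other CpG-dense genes of the promoter methylation list without an NMI were Cacna2d3 (11.1 CpG per 100 bp) and Sfrp1 (10.3). In the other direction, Cdkn1a, a p53 target that blocks the cell cycle, had an NMI of 2397 bp although its outermost 5′ end has 0.699 CpG per 100 bp, and the NMI lies at another of its 5 distinct 5′ ends. Zmynd10, Sfrp4, Cdkn2b and Sfrp1 were named after their values were seen.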
